A study of Homo sapiens with 6 samples.

Results

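The genes described here are 10 growth factor and receptor genes of the PDGF and FGF families that are studied in glioma: the receptor genes PDGFRA, PDGFRB, FGFR1 and FGFR3, the PDGF ligand genes PDGFA and PDGFB, and the FGF ligand genes FGF1, FGF2, FGF4 and FGF5. Their members are all probe sets that the array's annotation gives to exactly 1 of these genes, which are 21 of the 12558 probe sets that are not controls. Their messenger RNA was read on 6 Affymetrix U95 Av2 arrays, 1 for each condition, in the human glioblastoma cell line U373. The arrays covered syk-transfected cells given ethanol and 10 µM of the inducer ponasterone A, called PonA here, at day 1 and at day 2, syk-transfected cells given ethanol alone at day 1, syk-transfected cells left untreated at day 1 and at day 2, and cells with neither transfection nor treatment at day 1. PonA was not given to untransfected cells, and ethanol alone was not given at day 2. The study used an ecdysone-inducible system, in which PonA, an insect-type steroid, switches on the transfected gene, here the tyrosine kinase gene SYK. Nothing says whether the arrays came from independent cultures or whether the transfected cells were 1 clone.

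PDGF ligands are dimers of A and B chains that bind receptor tyrosine kinases, and FGF ligands bind their receptors together with heparan sulphate on the cell surface. Both kinds of receptor switch on the Ras and ERK cascade, which induces its own inhibitors, the Sprouty proteins and the dual-specificity phosphatases. In the brain PDGFRA marks precursors of oligodendrocytes, and in gliomas it is often amplified or active, while PDGFRB is a receptor of pericytes. FGFR3 is a receptor of astroglia.

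The deposited values are MAS5 signal, 1 value per probe set on a linear scale, from arrays scaled to a common level. Signals of different probe sets cannot be compared with each other, so each is followed only across arrays. The 40th percentile of an array, between 22.7 and 26.5 signal units, served as the floor: a signal under it was set to it before the log2 scale, and a fold from such a value is a lower bound. Of 3 SYK probe sets, 548_s_at read 39.1 and 72.5 with PonA at day 1 and day 2. It was under the floor on every other array, at 14.4 with ethanol, at most 22.2 in untreated transfected cells and 1.74 in untransfected cells. 36885_at lay under the floor on all 6 arrays. 1630_s_at gave 35.2 to 56.3 with PonA and 22.0 to 73.1 without it in transfected cells, so these probe sets did not move together. Of the 8 astroglial and glioblastoma markers on the array, 5 were above the floor on all 6 arrays, with VIM at 4920 to 6460, and AQP4 was above it on none. The marker lists of other cells were mixed. Of 3 blood cell markers PTPRC and CD14 were under the floor on all 6 arrays and CD3E above it on all, at 58.7 to 83.2. Of 4 epithelial markers EPCAM and KRT19 were under it on all 6, CDH1 was above it on 1 and KRT8 on all, at 427 to 590. Of 4 markers of the oligodendrocyte line OLIG2 and MBP were under it on all 6, and CSPG4 and MOG above it on all, at 26.9 to 46.1 and 33.6 to 52.7.

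Of the 21 probe sets, 10 were above the floor on all 6 arrays and 3 on none. 14 were above it on at least 2 of the 5 transfected arrays and were tested, and the other 7 were not. The PonA effect came from an additive limma fit that held a PonA term and a day term, made on the 2 PonA arrays and the 3 other transfected arrays. Its error combines 2 residual degrees of freedom, namely how far ethanol lay from no treatment at day 1 and how far the 2 days disagreed on PonA, with a variance that limma borrows from all probe sets tested and weights as 4.48 degrees of freedom. The p-values use these as the yardstick in place of repeated cultures, and more of their weight lies on the borrowed variance. Both PonA arrays also had ethanol, but only 1 of the 3 other transfected arrays did. The PonA effect therefore holds a part of any ethanol effect, which this fit cannot separate. 1 of the 14 tested probe sets, for PDGFRA, passed the threshold of 0.05 after Benjamini-Hochberg adjustment over all 7934 probe sets tested, and it was lower with PonA. Over the whole array 5.07% of the tested probe sets passed, 2.7% higher and 2.37% lower, so the share called among these genes lay near that of the array. An unadjusted p under 0.05 was reached by 6 of the 14, against 19.5% of all tested. They were PDGFRA 1731_at and 1987_at, lower, and FGFR1 424_s_at, 2056_at and 2057_g_at and FGF5 1732_at, higher. Repeat probe sets of a gene are thus counted, and they are not independent. The median log2 effect was 0.09 over the 14 and 0.01 over all probe sets tested.

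PDGFRA, the receptor that binds both PDGF chains, was lower with PonA at both days by its brightest probe set. That probe set, 1731_at, read 118 with PonA at day 1 and 108 with PonA at day 2, against 211 with ethanol at day 1 and 306 and 256 untreated at day 1 and day 2. Both PonA arrays lay below the 3 other transfected arrays, and untransfected cells gave 381, above all 5 transfected arrays. The log2 PonA effect was -1.17 ± 0.21 (SE, 2 PonA and 3 other arrays, 95% interval -1.69 to -0.65), which is 2.25-fold lower (limma, adjusted p = 0.0330). In RNA from a whole culture, fewer cells with PDGFRA and less PDGFRA RNA per cell cannot be told apart. The difference was 2.60-fold against untreated cells at day 1 and 2.38-fold at day 2, and 1.79-fold against ethanol at day 1. Ethanol alone stood 1.45-fold below untreated cells at that day. The call was lost without the PonA array of day 1 (adjusted p = 0.159) and without the PonA array or the untreated array of day 2 (adjusted p = 0.184, the same fit for both, since the day term then absorbs the array left at day 2), where the effect was -1.25 and -1.11.

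The other PDGFRA probe sets did not all follow. 1987_at gave 54.7 and 37.8 with PonA at day 1 and day 2, against 74.8 with ethanol and 73.9 and 89.8 untreated, and 82.0 in untransfected cells. Both PonA arrays again lay lowest, but the log2 effect of -0.79 ± 0.23 (SE) did not pass (limma, adjusted p = 0.114). 1988_at, built on the same source sequence as 1987_at, gave 49.7 and 35.4 with PonA, against 45.7 with ethanol and 52.5 and 33.7 untreated, with an effect of 0.04 ± 0.17 (adjusted p = 0.926) and overlapping groups. 36157_at lay between 0.528 and 4.67 on all 6 arrays, under the floor, and carries no measurement of a change. Probe sets of 1 gene read different stretches of its transcript, and which stretch each reads is not given in the sources used here.

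PDGFRA was called lower with PonA on 1731_at only, and FGFR3 was at least 2-fold lower in untreated transfected than in untransfected cells. The windows at their start sites are shown to place these genes in the genome. They come from RefSeq on GRCh38.p14, plus strand, 250 bases before to 50 bases after each annotated start. 5 motifs were searched on both strands, with no regard to overlap, and matches are in capitals. The TATA box was spelled TATAAA. The CCAAT box was searched by those 5 letters. The GC box, bound by SP1, was spelled GGGCGG. The nuclear receptor half-site was spelled AGGTCA. The AP-1 site was spelled TGANTCA. The 2 PDGFRA windows are chr4:54229043-54229342 and chr4:54233710-54234009, and the FGFR3 window is chr4:1793043-1793342.
PDGFRA start 1: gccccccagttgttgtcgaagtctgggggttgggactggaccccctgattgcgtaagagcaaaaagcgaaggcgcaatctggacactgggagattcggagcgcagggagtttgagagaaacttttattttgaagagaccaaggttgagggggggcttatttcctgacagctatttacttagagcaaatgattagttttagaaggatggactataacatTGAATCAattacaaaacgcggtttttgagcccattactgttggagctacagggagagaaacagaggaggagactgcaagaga
PDGFRA start 2: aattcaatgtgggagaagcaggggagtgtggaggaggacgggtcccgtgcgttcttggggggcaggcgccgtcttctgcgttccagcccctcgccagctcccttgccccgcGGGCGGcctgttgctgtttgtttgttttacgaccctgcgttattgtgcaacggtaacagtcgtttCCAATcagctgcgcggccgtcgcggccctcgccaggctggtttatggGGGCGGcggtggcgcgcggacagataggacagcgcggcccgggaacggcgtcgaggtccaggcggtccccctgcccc
FGFR3: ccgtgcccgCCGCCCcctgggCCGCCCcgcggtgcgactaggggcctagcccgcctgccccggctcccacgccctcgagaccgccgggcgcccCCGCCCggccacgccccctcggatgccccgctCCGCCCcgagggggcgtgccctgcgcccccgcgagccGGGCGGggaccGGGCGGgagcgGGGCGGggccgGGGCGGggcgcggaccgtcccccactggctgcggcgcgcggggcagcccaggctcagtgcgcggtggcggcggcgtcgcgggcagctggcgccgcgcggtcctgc
The first PDGFRA window held 1 AP-1 match, as 7.71% of the 35116 promoter windows of the table do, and no match to the other 4 motifs. The second held 1 CCAAT match and 2 GC boxes, which are in 12155 and 15786 of the 35116 windows. The FGFR3 window held 8 GC boxes, some of them a few bases apart. GC content was 47.0% and 66.7% in the PDGFRA windows and 86.3% in the FGFR3 window, against a median of 58.7%. A match is only a description of these letters.

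PDGFRB, the receptor for the B chain, stayed close to the floor. 1771_s_at gave 37.4 and 24.2 with PonA at day 1 and day 2, against 31.8 with ethanol and 22.5 and 38.6 untreated, and 46.6 in untransfected cells. The groups overlapped, and the log2 effect was -0.08 ± 0.27 (SE, limma, adjusted p = 0.918). The second PDGFRB probe set, 36993_at, was above the floor on 1 array only, at 28.6 with PonA at day 2, and was not tested. Of 4 pericyte and fibroblast markers RGS5 and COL3A1 were under the floor on all 6 arrays, ACTA2 was above it on 5, at up to 175 in untransfected cells, and COL1A1 on all, at 31.7 to 121. Their part in the PDGFRB signal was not tested.

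FGFR1, a receptor for many FGF ligands, had a positive PonA effect on all 4 of its probe sets, but none passed the threshold. 424_s_at gave 446 and 309 with PonA at day 1 and day 2, against 333 with ethanol and 247 and 211 untreated, and 193 in untransfected cells. Here the ethanol array stood above the PonA array of day 2. 2056_at gave 240 and 226 with PonA, against 209 with ethanol and 142 and 139 untreated, and 133 in untransfected cells. 2057_g_at gave 171 and 221 with PonA, against 127 with ethanol and 89.0 and 147 untreated, and 96.8 in untransfected cells. On these last 2 probe sets both PonA arrays lay above the 3 other transfected arrays. The log2 effects of the 3 probe sets were 0.60 ± 0.20, 0.57 ± 0.22 and 0.65 ± 0.21 (SE, limma, adjusted p = 0.158, 0.221 and 0.153), or 1.52-fold, 1.49-fold and 1.57-fold. 36168_at, built on the same source sequence as 424_s_at, gave 158 and 135 with PonA, against 146 with ethanol and 143 and 121 untreated, and 132 in untransfected cells, with an effect of 0.14 ± 0.16 (adjusted p = 0.702). Its 95% interval, -0.25 to 0.53, overlaps those of the other 3, the widest of which runs from 0.04 to 1.10. All were read on the same arrays, so this overlap does not show whether they differ, which was not tested.

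At day 1 the FGFR1 signal was higher with ethanol alone than in untreated cells on the first 3 probe sets. On 36168_at the signals were close, at 146 with ethanol against 143 untreated, a log2 difference of 0.03. The log2 difference between ethanol and untreated cells was 0.43, 0.55 and 0.51 on the first 3 FGFR1 probe sets, while that between PonA and ethanol was 0.42, 0.20 and 0.44. The distance of PonA-treated from untreated cells at day 1, 0.86, 0.75 and 0.94, is the sum of these parts. At day 2, where no ethanol array stood, it was 0.55, 0.70 and 0.59. These differences are each of 1 array against 1 array and have no replicate check.

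FGFR3 was the receptor with the widest range, 1.98 on the log2 scale over the 6 arrays. 31805_at gave 32.4 and 50.4 with PonA at day 1 and day 2, against 36.9 with ethanol and 11.2 and 24.7 untreated, and 97.7 in untransfected cells. The untreated array of day 1 was under the floor, and that of day 2 was barely above it. The log2 PonA effect was 0.47 ± 0.28 (SE, limma, adjusted p = 0.423), and the groups overlapped. At day 2 the PonA signal was 2.04-fold that of untreated cells, while at day 1 it was at least 1.23-fold that of untreated cells and 1.14-fold below that of ethanol.

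**Figure D1:**
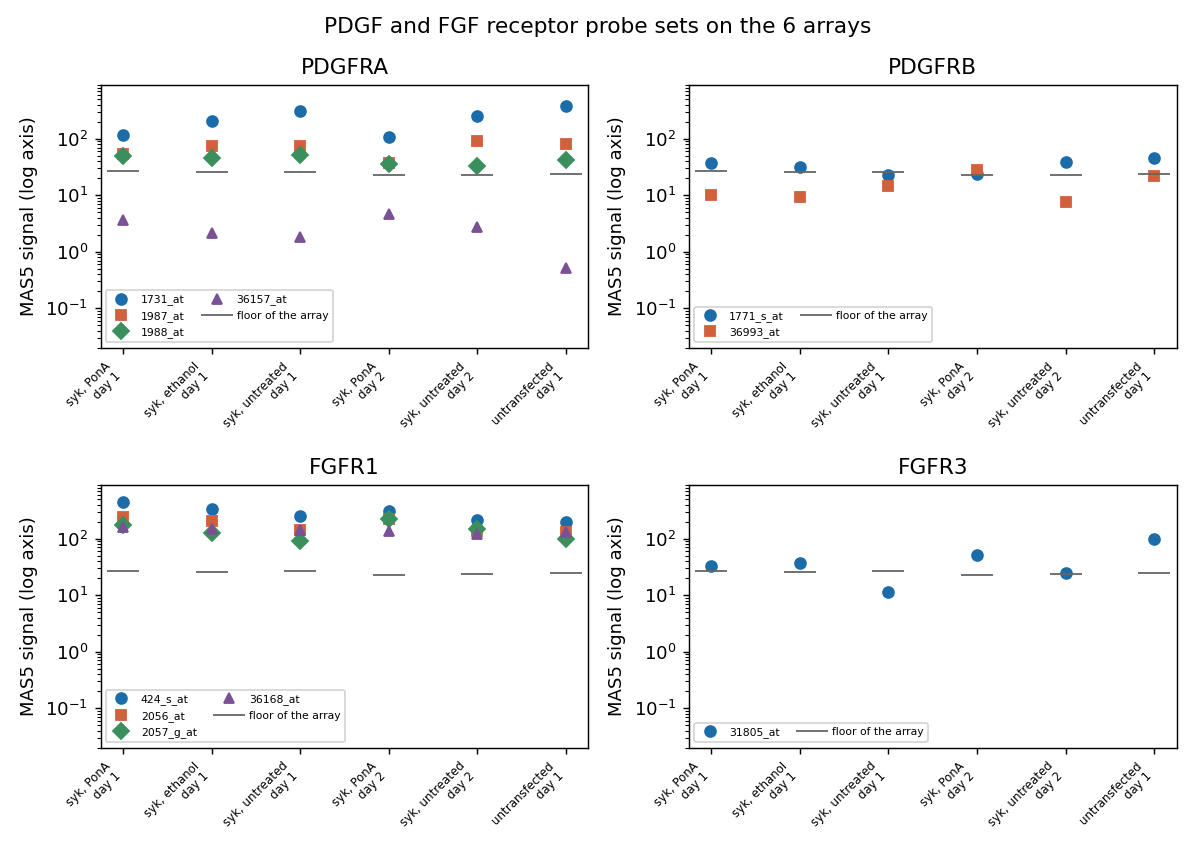
MAS5 signal (log axis) of the 11 receptor probe sets on the 6 arrays, 1 point per array, with the floor of each array as a grey bar. PDGFRA 1731_at is lowest on both PonA arrays, at 118 and 108, and FGFR3 is highest in untransfected cells, at 97.7.

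PDGFA, the A chain of PDGF, was well above the floor on every array by 35703_at. It gave 261 and 255 with PonA at day 1 and day 2, against 213 with ethanol and 166 and 267 untreated, and 194 in untransfected cells. The untreated array of day 2 was the highest of all and that of day 1 the lowest, a ratio of 1.61 between them, so the spread among arrays without PonA covered the PonA arrays. The log2 effect was 0.24 ± 0.21 (SE, limma, adjusted p = 0.611). The second PDGFA probe set, 1109_s_at, was above the floor only on the untreated array of day 2, at 30.9. PDGFB, the B chain, was above the floor on a single array: 1573_at gave 55.2 in untreated transfected cells at day 1 and between 13.0 and 20.4 on the other 5. Any 2-fold difference of PDGFB therefore rests on that array.

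FGF2, basic FGF, is a mitogen of astrocytes and glioma cells that lacks a secretion signal. 1828_s_at gave 41.7 and 32.9 with PonA at day 1 and day 2, against 58.5 with ethanol and 36.6 and 42.1 untreated, and 44.2 in untransfected cells, with a log2 effect of -0.24 ± 0.24 (SE, limma, adjusted p = 0.657). The ethanol array was the highest of the 6. The other 2 FGF2 probe sets, 41806_at and 1593_at, were under the floor on all transfected arrays, and of the 6 arrays only the untransfected one was above it, for 41806_at at 25.9. FGF1, acidic FGF, gave 32.3 and 21.2 with PonA, against 47.5 with ethanol and 32.4 and 20.3 untreated, and 25.1 in untransfected cells, with an effect of -0.17 ± 0.22 (adjusted p = 0.735). Both day 2 arrays were under the floor.

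FGF5, a ligand known as a regulator of hair growth, was above the floor on both PonA arrays. 1732_at gave 33.1 and 45.7 with PonA at day 1 and day 2, against 18.4 with ethanol and 29.5 and 18.1 untreated, and 11.8 in untransfected cells. The PonA arrays lay above the others, by little at day 1, and 3 of the 4 other arrays were under the floor. The log2 effect was 0.57 ± 0.22 (SE, limma, adjusted p = 0.218) and did not pass. Both PonA arrays lay above the 3 other transfected arrays on 3 of the 14 tested member probe sets, namely FGF5 and 2 for FGFR1. Of all tested probe sets 16.6% did. On 2 member probe sets, both for PDGFRA, they lay below, against 15.4% of all tested. FGF5 met the filter through its PonA arrays, since without them only the untreated array of day 1 exceeded the floor.

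FGF4, a ligand of early embryos, had the widest range of these genes, 2.31 on the log2 scale, by 1 of its probe sets. With PonA that probe set went opposite ways from untreated cells at the 2 days, each time 1 array against 1 array. A signal above the floor does not by itself show that a gene is expressed. 1730_s_at read 84.9 in PonA-treated cells of day 1, against 71.4 in cells given ethanol alone and 51.5 in untreated cells. At day 2 it gave 23.5 with PonA, just above the floor, against 117 untreated, and untransfected cells gave 86.6. At day 1 the PonA signal was 1.65-fold that of untreated cells, and at day 2 it was 4.98-fold lower. The additive effect of -0.71 ± 0.58 (SE, limma, adjusted p = 0.577) averages these, and its SE is the largest among the members. The PonA-by-day term of a limma fit with 1 residual degree of freedom was -2.80 ± 0.46 (SE, unadjusted p = 0.000466, adjusted p = 0.917). Across the array that limma fit called none of the 7934 probe sets (0%), and 4.16% had an unadjusted p under 0.05. Next among the members came PDGFRB 1771_s_at, with a term of -1.05 ± 0.42 (SE, limma, adjusted p = 1). Without the PonA array of day 1 the additive effect of FGF4 was -2.31, which is the day 2 difference of 1 array against 1 array. The effect was 0.49 without the PonA array or without the untreated array of day 2. The other FGF4 probe set, 1408_at, lay under the floor on all 6 arrays, at 1.48 to 9.57.

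**Figure D2:**
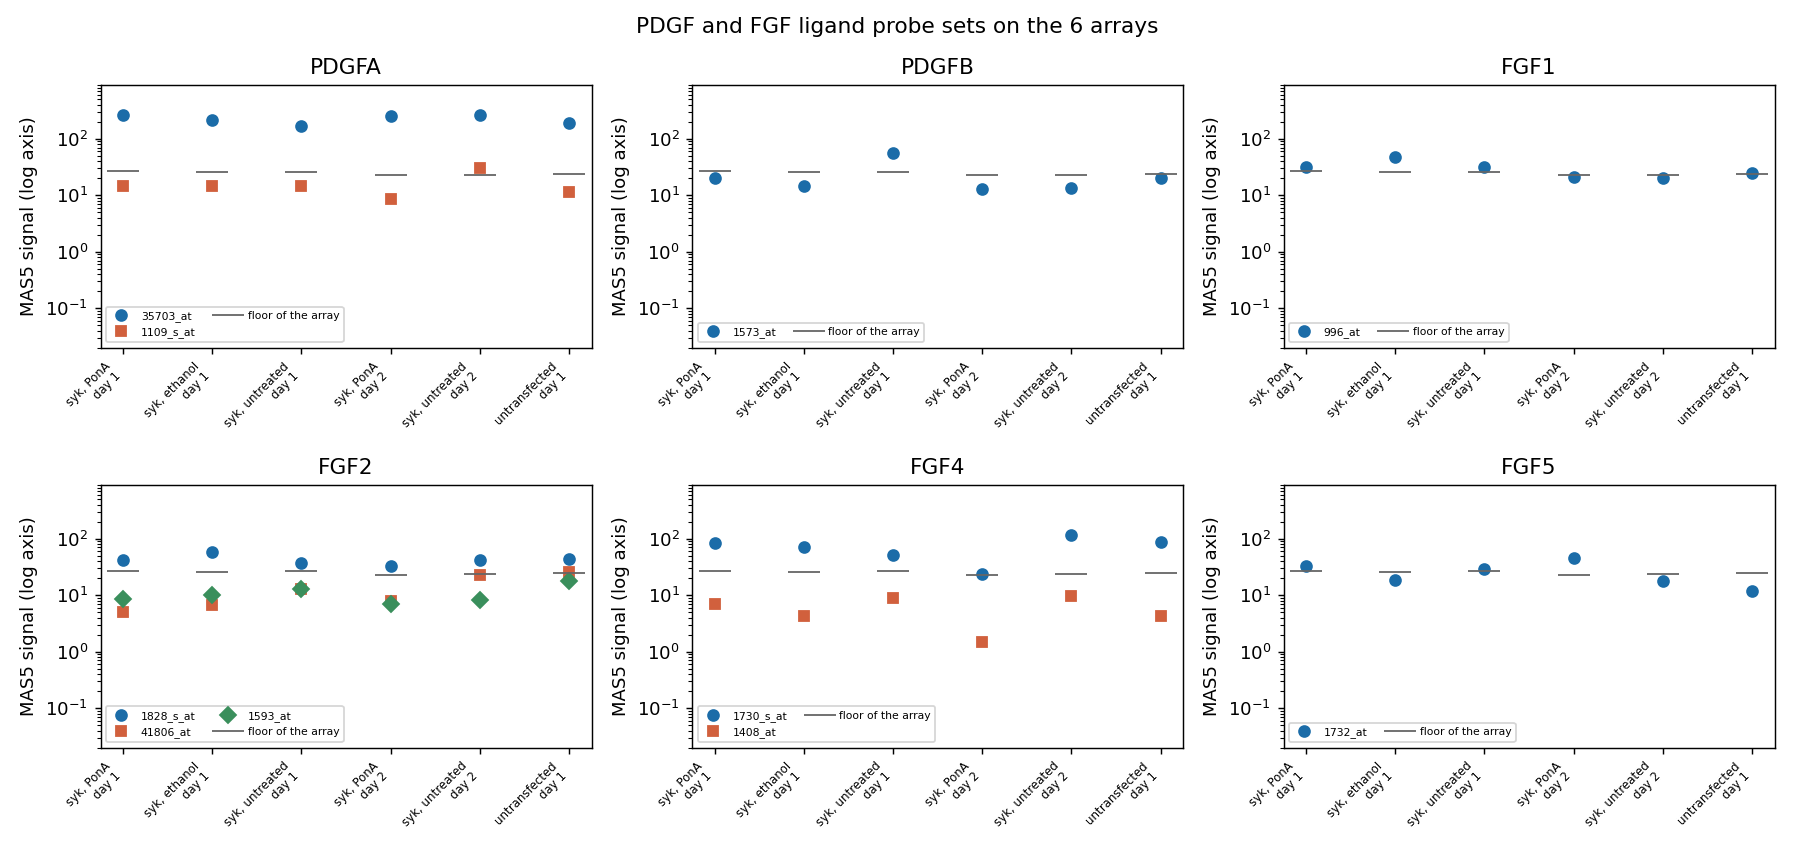
MAS5 signal (log axis) of the 10 ligand probe sets on the 6 arrays, 1 point per array, with the floor of each array as a grey bar. PDGFA 35703_at, FGF2 1828_s_at and FGF4 1730_s_at are above the floor everywhere, while PDGFB 1573_at is above it only in untreated transfected cells at day 1, at 55.2.

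**Figure D3:**
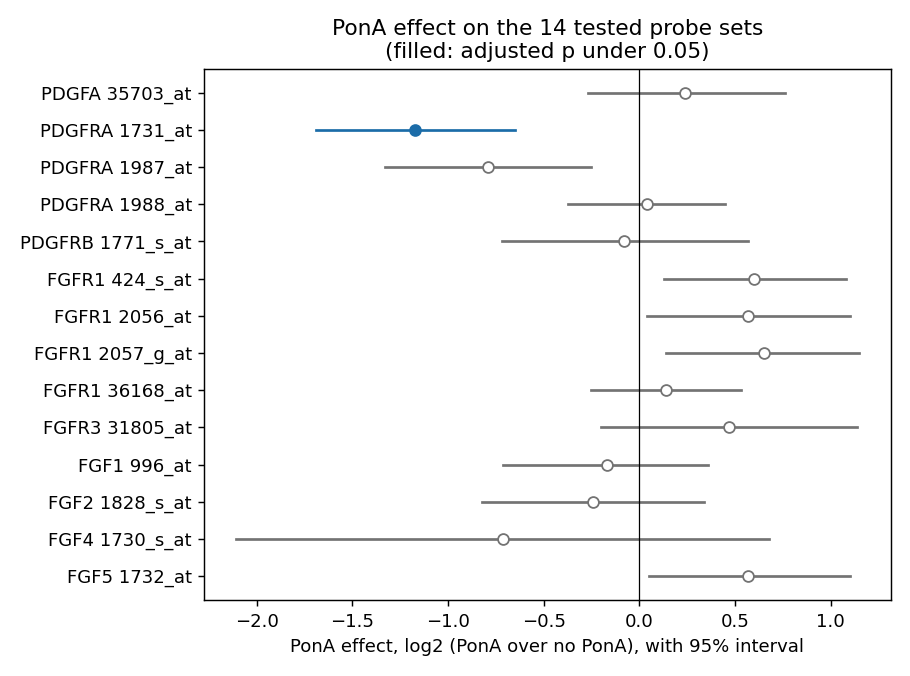
Log2 PonA effect of the 14 tested member probe sets in the additive limma fit, with 95% intervals. Filled marks passed the adjusted threshold, which only PDGFRA 1731_at did, at -1.17, and the 4 FGFR1 probe sets lie between 0.14 and 0.65.

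Between single arrays, a probe set was counted when its signals differed 2-fold or more and at least 1 of them exceeded the floor. Against ethanol at day 1, PonA gave 0 of 14 member probe sets with such a difference, while 5.62% of all probe sets differed. Against untreated cells at day 1 it gave 2 of 15, PDGFRA 1731_at and PDGFB, both lower, where 3.12% of all were lower. Against untreated cells at day 2 it gave 1 of 15 higher, FGFR3, and 3 lower, the PDGFRA probe sets 1731_at and 1987_at and FGF4, where 4.67% of all were higher and 4.04% lower. The first pair of comparisons shares the PonA array of day 1. With ethanol alone, 1 of 15 member probe sets was at least 2-fold lower than untreated at day 1, PDGFB, where 1.15% of all were. Untreated cells at day 2 differed from those at day 1 on 2 of 16, with FGF4 2.27-fold higher, where 1.04% of all were, and PDGFB at least 2.38-fold lower, where 2.15% were.

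Transfected cells left untreated at day 1 differed at least 2-fold from untransfected cells on 2 of 16 member probe sets. FGFR3 was at least 3.72-fold lower, at 11.2 against 97.7, where 2.64% of all probe sets were lower, and PDGFB was at least 2.28-fold higher, at 55.2 against 20.4, where 3.08% were higher. The FGFR3 signal was below that of untransfected cells on all 5 transfected arrays, the nearest of which, PonA at day 2, gave 50.4, and untransfected cells stood 1.94-fold above it. PDGFB was under the floor on the other 4 transfected arrays, as in untransfected cells. GFAP, the filament protein of astrocytes, was also lower on all 5 transfected arrays, at 103 to 229 against 1530 in untransfected cells, and its part in the FGFR3 difference was not tested. Of the other 7 astroglial markers, VIM, CD44 and SOX2 lay within the range of the transfected arrays in untransfected cells. S100B, FABP7 and CHI3L1 were 1.02-fold, 1.09-fold and 1.48-fold above the highest transfected array, and AQP4 was under the floor throughout. PDGFRA 1731_at and PDGFRB 1771_s_at were likewise highest in untransfected cells, 1.25-fold and 1.21-fold above the nearest transfected array. Other members went the other way. FGFR1 424_s_at and 2056_at were lowest in untransfected cells, by little, at 193 against 211 to 446 and at 133 against 139 to 240. So was FGF5 1732_at, at 11.8, which is under the floor, against 18.1 to 45.7. How often this array was highest or lowest over all probe sets was not counted, so these orders are no result about the members. At least 2-fold beyond all 5 transfected arrays, it stood above on 0.763% and below on 0.67% of 8654 probe sets above the floor on any array. The members named here stayed under 2-fold. With 1 untransfected array, transfection, clone and array cannot be told apart.

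By a fixed rule, the genes whose signal followed these members most closely over the 6 arrays were sought among 2183 probe sets with a range of at least 1 on the log2 scale. For PDGFRA 1731_at they were KYNU (r = 0.991), an enzyme of tryptophan breakdown, TTF2 (r = 0.987), a transcription termination factor, and RABGGTA (r = 0.987), a subunit that attaches lipid to Rab proteins. KYNU gave 19.6 and 22.3 with PonA at day 1 and day 2, against 50.3 with ethanol and 69.0 and 61.8 untreated, and 76.7 in untransfected cells. For FGFR3 they were C14orf132 (r = 0.980), HARS1 (r = 0.947), a tRNA synthetase, and MYO10 (r = 0.940), a myosin of filopodia, each highest in untransfected cells. For FGF4 they were IGHM (r = 0.992), an immunoglobulin heavy chain, ARID1A (r = 0.956), a chromatin remodeller subunit, and CST6 (r = 0.943), a cystatin, each lowest with PonA at day 2. These are Pearson correlations over 6 arrays of log2 signal, chosen as the highest of many, and describe these arrays only.

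Around the receptors, several genes of the ERK feedback loop and some of the genes for heparan sulphate proteoglycans were higher with PonA. Of 8 tested feedback inhibitors 5 rose and none fell, where 2.7% of all tested probe sets were called higher and 2.37% lower, with a median log2 effect of 1.14 against 0.01 over all. The lists were chosen with earlier results of these data known, so these shares are no test of a list. DUSP4, among the 8 but not called, exceeded the floor only on the 2 PonA arrays, so its positive sign came with passing the filter. SPRY2, a Sprouty inhibitor, gave 202 and 316 with PonA at day 1 and day 2, against 42.7 with ethanol and 27.1 and 33.3 untreated, an effect of 2.86 ± 0.27 (SE, limma, adjusted p = 0.00441). SPRY1, of the same family, gave 73.3 and 98.8 with PonA, against 31.2 with ethanol and 34.1 and 23.5 untreated, with an effect of 1.56 ± 0.24 (adjusted p = 0.0207). The ERK phosphatase genes DUSP6, DUSP7 and DUSP5 rose with effects of 2.39 ± 0.36, 1.27 ± 0.19 and 0.86 ± 0.17 (adjusted p = 0.0191, 0.0183 and 0.0427). DUSP7 and DUSP5 were 0.38 and 0.09 lower on the log2 scale with ethanol alone than untreated, while DUSP6 was 1.16 higher. Without the PonA array of day 1, 3 of the 5 calls remained, for SPRY2, SPRY1 and DUSP6, and without the PonA array or the untreated array of day 2 only that of SPRY2 did. Without the untreated array of day 1 DUSP5 was lost (adjusted p = 0.0511).

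Of 12 tested growth-factor-induced genes 1 rose, none fell and 11 had a positive effect, with a median of 0.48. Among the 11, ETV4 exceeded the floor only on the 2 PonA arrays, so its positive sign came with passing the filter. With 2.7% of all tested probe sets called higher, a single call says little about this list. ETV5, an ETS factor known to respond to FGF, gave 605 and 826 with PonA at day 1 and day 2, against 297 with ethanol and 115 and 111 untreated, and 195 in untransfected cells. Its log2 effect was 2.22 ± 0.45 (SE, limma, adjusted p = 0.0449), and of its distance of 2.39 from untreated cells at day 1, 1.37 was there with ethanol alone. Of 14 tested genes for heparan sulphate proteoglycans, their enzymes and ligand-handling proteins 3 rose and none fell, where 2.7% of all tested probe sets were called higher and 2.37% lower, with a median of 0.26. In this list 9 had a positive effect and 5 a negative one, among them the syndecans SDC4 at -0.41 and SDC1 at -0.33, both uncalled. GPC4, a glypican, gave 438 and 578 with PonA, against 114 with ethanol and 114 and 101 untreated, an effect of 2.19 ± 0.20 (adjusted p = 0.00421). GPC1, another glypican, and SDC2, a syndecan, rose by 0.86 ± 0.17 and 1.13 ± 0.23 (adjusted p = 0.0433 and 0.0442). Of their log2 distances of 0.93 and 1.13 from untreated cells at day 1, 0.22 and 0.47 were there with ethanol alone. ETV5, GPC1 and SDC2 were lost without the PonA array of day 1 (limma, adjusted p = 0.0599, 0.219 and 0.0976) and without the PonA array or the untreated array of day 2 (0.217, 0.253 and 0.275), and GPC1 also without the untreated array of day 1 (0.059). GPC4 passed without any 1 array.

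Of 25 tested adaptor, Ras and kinase genes 1 rose and none fell, which is near the 2.7% called higher and 2.37% called lower among all tested probe sets, with a median log2 effect of 0.11. The one that rose was NCK2, an adaptor that binds activated PDGF receptors, at 283 and 226 with PonA at day 1 and day 2, against 119 with ethanol and 99.5 and 76.8 untreated, an effect of 1.45 ± 0.18 (SE, limma, adjusted p = 0.00897). The call was lost without the PonA array of day 1 (adjusted p = 0.0553) and without the PonA array or the untreated array of day 2 (0.0709), and 3 genes of the list were called without the ethanol array. None of 4 tested genes for other FGF ligands and receptors passed, where FGF13 had an effect of 0.68 ± 0.20 (adjusted p = 0.115) and FGF3 of -0.46 ± 0.18 (adjusted p = 0.237). None of 3 tested genes for other class III receptors and their ligands passed, where FLT3LG had an effect of -0.41 ± 0.31 (adjusted p = 0.552) and CSF1R of -0.28 ± 0.32 (adjusted p = 0.706). The median over all probe sets tested was 0.01.

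**Figure D4:**
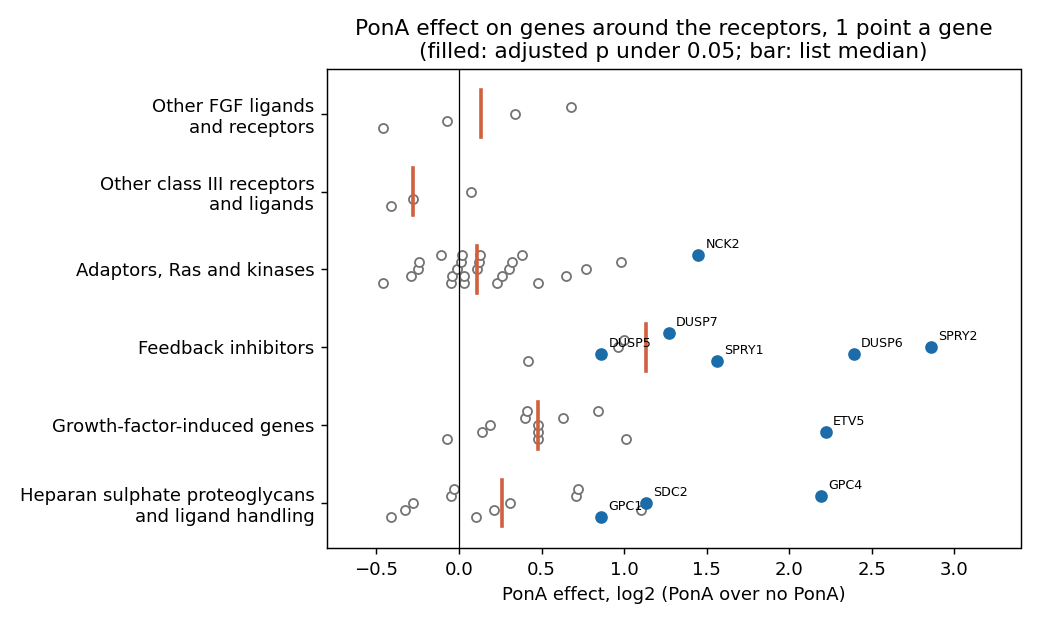
Log2 PonA effect of the tested genes in 6 lists around the receptors, 1 point per gene, filled where the additive limma fit passed the adjusted threshold, with the list median as a bar. All filled points lie above 0, 5 of them among the feedback inhibitors, with SPRY2 at 2.86 and ETV5 at 2.22.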

How the data were processed

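Per the submitters' processing notes the arrays were summarised with MAS5, whose version, detection calls and target level are not given in the sources used here. The deposited table holds MAS5 signal, an intensity on a linear scale, and per array its mean without the lowest and highest 2% of probe sets was 150.07 or 150.08, so the authors had scaled the arrays. Total RNA had been labelled as biotin cRNA, per the labels' protocols. Samples were grouped by title.

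Gene names came from the platform annotation, updated through Entrez identifiers to RefSeq symbols (GRCh38.p14). Of the 12558 probe sets that are not controls, 10943 had 1 symbol, 545 several and 1070 none. A probe set given to PDGFRA and another gene together was left out. Signals were floored at the 40th percentile of each array and put on the log2 scale. limma 3.58.1 in R 4.3.3 (lmFit, eBayes) gave the additive fit and the PonA-by-day fit, for probe sets that exceeded the floor on 2 or more of the 5 transfected arrays. Single arrays were compared by a 2-fold rule with no test. With 1 array per condition the number of arrays limits the precision.

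All member probe sets were named. From the 6 lists around the receptors, with the brightest probe set for each gene, those that passed were named, at most 4 a direction, or the 2 largest effects where none passed, except that all 5 feedback inhibitors that rose are named. The members, lists and tests were chosen with earlier results of these data known. Alternatives were other floors, offsets in place of a floor, quantile normalization, other filters, no day term, and leaving out each array.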

Additional observations from a re-analysis of the deposited data

How the results depend on the processing

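The labels give no replicate numbers, so no fit was paired by replicate, but the day term of the additive fit compares arrays within each day. PDGFRA 1731_at kept its direction under all 13 alternatives, with effects of -1.32 to -0.98, and passed under 8 of them (adjusted p 0.00566 to 0.184). Leaving out either day 2 array gave identical values for every result of the additive fit, so those 2 of the 13 are 1 fit. A fit without either PonA array holds a single PonA array, so a call in it has no spread between PonA arrays behind it. PDGFRA 1731_at missed the threshold with a floor at the 20th percentile (0.128), with no filter on low signals (0.112) and without either PonA array or the untreated array of day 2. The 4 FGFR1 probe sets kept a positive effect and passed under none (lowest adjusted p 0.0625). The effect of PDGFA was negative without the PonA array of day 1 (-0.07), and those of PDGFRA 1988_at, PDGFRB 1771_s_at and FGF4 changed sign or reached 0 under 2 alternatives each, all uncalled. The PonA-by-day term of FGF4 was called with no filter (-2.80, adjusted p = 0.0155). The 10 called genes around the receptors kept a positive effect under every alternative run. SPRY2 and GPC4 passed under 12 of 13 and DUSP5 under 5, and with no filter none of the 10 passed.

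The number of probe sets called, 402, was 107 with a floor at the 20th percentile, 619 with log2(signal + 32), 29 with no filter, and 107 to 653 with 1 array left out. The number of member probe sets called, 1, was 0 with the lower floor and with no filter. With 1 array left out, the PDGFRA 1731_at call was kept without the ethanol array and without the untreated array of day 1. That call was lost without either PonA array or the untreated array of day 2. The PonA-by-day fit called 1 probe set with log2(signal + 32) and 86 with no filter. Among members at least 2-fold apart, PonA against untreated at day 1 gave 1 with the floor at the 60th percentile and with either offset. At day 2 it gave 8 with the 20th percentile, 1 with the 60th, and 2 with either offset. Ethanol against untreated gave 2 with the 20th percentile, and 0 with the 60th and with the offset of 32. Transfected against untransfected gave 5 with the 20th percentile, 0 with the 60th, and 1 with either offset. Untreated cells at day 2 against day 1 gave 4 with the 20th percentile, 0 with the 60th, 1 with the offset of 16 and 0 with that of 32. A lower floor lets more of a dim probe set's signal through, and 11 of the 21 member probe sets fell under the floor on at least 1 array. The cause of the other changes was not tested.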
